A study of Mus musculus with 9 samples.

Results

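The 39 genes described here encode RNA polymerase I and its factors, nucleolar phosphoproteins, proteins of the box C/D and box H/ACA snoRNPs, and assembly factors of the small and the large ribosomal subunit. They were chosen by gene symbol, and each of the 39 symbols matched 1 of the 55401 genes in the table. The study profiled primary neonatal mouse ventricular myocytes (NMVMs) by poly(A)-selected RNA-seq, with 3 libraries in each of 3 groups. Every group came from WT C57BL/6J mice aged 1 day. Control cells stayed in complete medium with serum at normal oxygen. Cells of the hypoxia group spent 6 hours in a sealed low-oxygen chamber, in medium that held neither glucose nor serum, and cells of the hypoxia + rSRGN group had the same exposure with recombinant serglycin protein added. Low oxygen and the loss of glucose and serum therefore cannot be told apart in either comparison with control. The labels do not say whether libraries of a group came from separate cultures or animals, so the p-values below may measure technical spread only.

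Ribosomes are built in the nucleolus, where RNA polymerase I transcribes the ribosomal DNA repeats into a long precursor. Small nucleolar ribonucleoproteins (snoRNPs) guide the methylation and pseudouridylation of that precursor, and large sets of assembly factors cleave it, fold it and load ribosomal proteins onto it. The work is costly for a cell and is known to be tuned to growth signals, among them MYC, and to nutrient and energy supply. Growing heart muscle cells depend on it for hypertrophic growth. Poly(A)-selected libraries measure the mRNAs of these proteins, not ribosomal RNA or ribosome output.

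Counts per library totalled 21669017 to 22781557 in control, 16583985 to 18148474 in hypoxia and 16640239 to 20826701 in hypoxia + rSRGN. A member drew between 197 fragments (Polr1b) and 16277 fragments (Npm1) in a library, and all 39 members passed the filter on low counts with which 16762 genes were tested. Levels are CPM, counts scaled to a common library size with TMM factors. Calls required 2 things of a gene: a 1.5-fold or larger change, and a p below 0.05 after Benjamini-Hochberg adjustment over the genes tested (edgeR's quasi-likelihood test). Cell type markers moved with the treatment. All 15 cardiomyocyte markers were tested, and in hypoxia all 15 were called lower. Their levels summed to 51040 to 62520 CPM in control, 4204 to 6522 in hypoxia and 8404 to 9028 in hypoxia + rSRGN. Fibroblast markers were higher for 7 of 10 and summed to 10120 to 11770, 20870 to 23610 and 22950 to 23770 CPM. Macrophage markers were lower for 10 of 11 (234.7 to 251.4, 25.5 to 29.0 and 30.3 to 35.6 CPM). Endothelial markers were lower for 7 of 10, but their sums overlapped between groups (115.0 to 148.6, 106.8 to 122.5 and 116.9 to 144.9 CPM). Smooth muscle and pericyte markers were higher for 2 and lower for 2 of 8, and proliferation markers were higher for 6 of 10 (458 to 520, 755 to 802 and 679 to 719 CPM). None of the 8 neutrophil markers passed the filter, and Mpo and Retnlg had 0 counts in all 9 libraries. The part of these shifts in the changes below was not tested, and in such bulk libraries fewer cells of a type and less RNA per cell cannot be told apart. Of 11 tested hypoxia response genes, 3 were higher in hypoxia, led by Ndrg1 and Adm, and 5 were lower, among them Pdk1 and Ankrd37.

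Hypoxia against control was examined first. The genes of ribosome production did not move as a block: 13 of the 39 were called higher, 4 were called lower and 22 were not called. That is 43.6% of the members against 51.6% of all genes tested, with 33.3% called higher beside 26.4% of all genes and 10.3% called lower beside 25.1%. The median log2 fold change of the 39 was 0.25, and that of all genes tested was 0.05. Roles differed in their counts. The 4 lower calls were all among the 10 genes of polymerase I transcription, the higher calls lay mostly with the snoRNP proteins (6 of 8) and the large subunit factors (4 of 9), and none of the 9 small subunit factors was called. Without the fold change limit, 29 members passed, 21 higher and 8 lower, or 74.4% beside 70.9% of all genes. At an unadjusted p below 0.05, 31 passed (79.5%, beside 73% of all genes). In 29 members the control and hypoxia libraries did not overlap in CPM, 21 higher and 8 lower (53.8% and 20.5%), beside 73% of all genes, 37.7% higher and 35.3% lower.

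**Figure D1:**
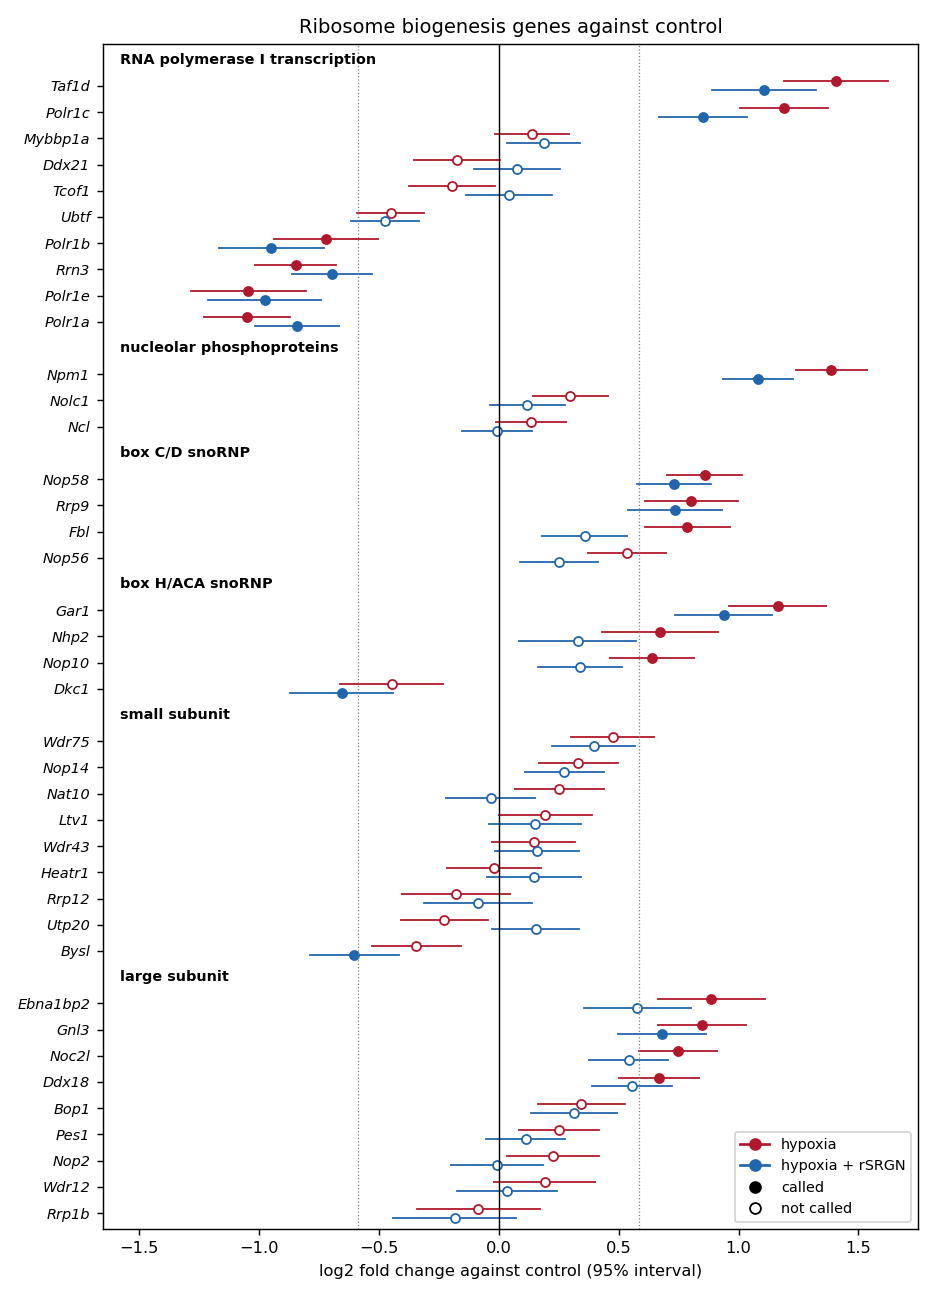
Log2 fold change of each of the 39 genes against control (x axis), grouped by role, for hypoxia (red) and hypoxia + rSRGN (blue). Points are estimates, bars are 95% intervals, filled points are called genes and dotted lines mark a 1.5-fold change. In hypoxia the 4 filled points left of 0 are Polr1a, Polr1e, Rrn3 and Polr1b, and the 4 farthest right are Taf1d, Npm1, Polr1c and Gar1.

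Within the machinery of RNA polymerase I, subunits of the same enzyme moved in opposite directions. Polr1a, the largest subunit and a part of the catalytic centre (chr6:71909053-71984935, plus strand, GRCm38), stood at 70.4, 84.8 and 77.35 CPM in the control libraries, 40.0, 37.0 and 35.3 in hypoxia and 42.5, 45.0 and 42.15 in hypoxia + rSRGN. All 6 libraries from hypoxic cells lay below all 3 controls. Its log2 fold change in hypoxia against control was -1.05 ± 0.09 (SE), with an adjusted p of 3.02e-10 in edgeR's quasi-likelihood test. Polr1b, the other large subunit of the catalytic centre, stood at 24.98, 22.1 and 22.8 CPM in control, at 13.75, 14.04 and 14.65 in hypoxia (-0.72 ± 0.10) and at 11.7, 12.7 and 11.8 in hypoxia + rSRGN. Polr1e, a subunit particular to this polymerase, stood at 22.9, 24.2 and 26.9 CPM in control, at 11.1, 12.5 and 12.2 in hypoxia (-1.04 ± 0.115), and at 14.1, 12.3 and 11.2 in hypoxia + rSRGN. For both genes the hypoxia libraries lay wholly below control. Polr1c, which the enzyme shares with RNA polymerase III, went the other way. It stood at 27.2, 25.1 and 28.2 CPM in control, at 57.7, 66.85 and 59.1 in hypoxia and at 50.7, 47.2 and 47.5 in hypoxia + rSRGN. The 3 groups did not overlap, and the log2 fold change in hypoxia was 1.19 ± 0.09 (adjusted p = 5.21e-11, edgeR).

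The initiation factors were split as well. Rrn3, the factor that makes the polymerase competent to start (chr16:13780708-13814839, plus strand), stood at 92.4, 79.9 and 80.0 CPM in control and at 47.4, 44.7 and 48.3 in hypoxia, a fall of 0.85 ± 0.08 on the log2 scale (adjusted p = 4.25e-09, edgeR). Taf1d, a subunit of the promoter selectivity factor, stood at 30.3, 28.6 and 33.8 CPM in control, 74.7, 94.7 and 76.3 in hypoxia and 70.5, 57.3 and 71.9 in hypoxia + rSRGN. It had the largest rise of the 39 (1.41 ± 0.10, adjusted p = 5.15e-11, edgeR), and its lowest hypoxic library lay well above its highest control. The Taf1d gene shares 13.6% of its exon bases with 12 other genes, mostly snoRNA genes in its own body, and the counting did not use strand, so part of its count is uncertain. Ubtf, which binds ribosomal DNA and holds it open, stood at 138.6 to 148.0 CPM in control and 102.0 to 106.5 in hypoxia. The groups did not overlap, but its change of -0.45 ± 0.07 was under the fold change limit. Tcof1 (treacle, a partner of Ubtf), Ddx21 (a nucleolar RNA helicase) and Mybbp1a (a nucleolar MYB-binding protein) had log2 fold changes of -0.19, -0.17 and 0.14 and did not pass the test at any fold. Their 95% intervals lay within 1.5-fold on both sides.

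**Figure D2:**
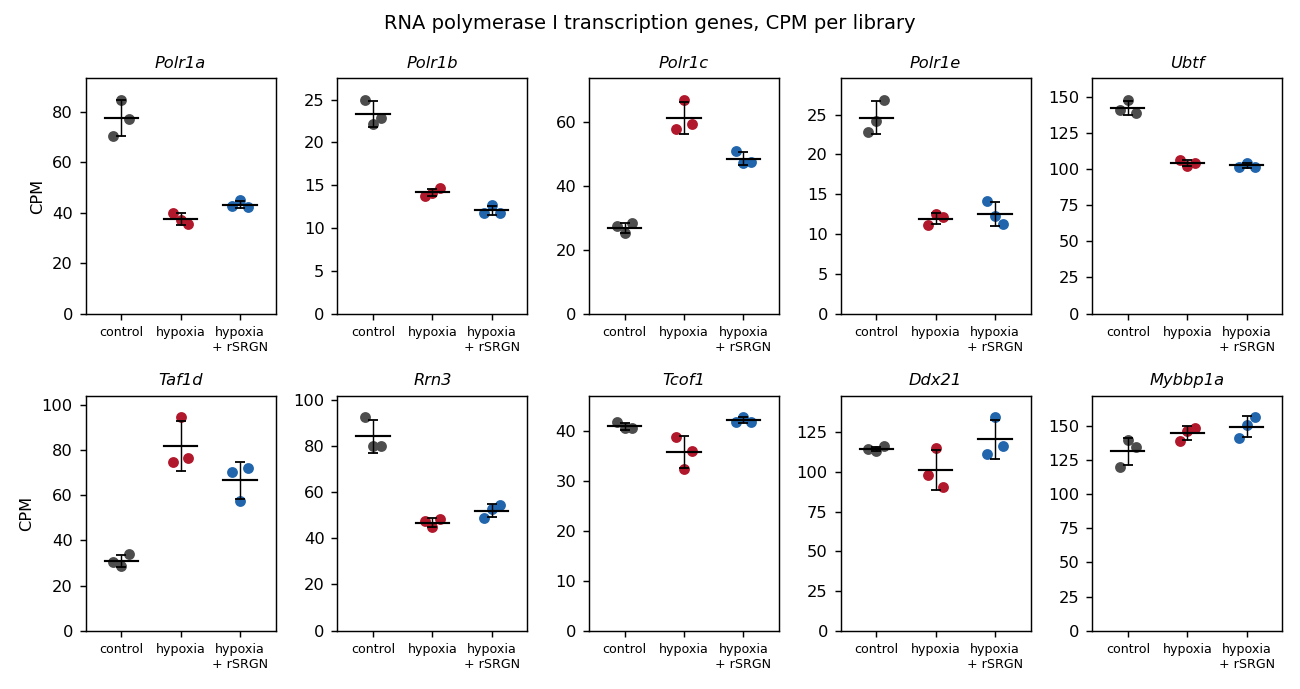
CPM per library of the 10 genes of RNA polymerase I transcription in control (grey), hypoxia (red) and hypoxia + rSRGN (blue). Points are libraries, lines are means and bars are SD (n = 3 libraries), and every axis starts at 0. Polr1c and Taf1d rise while Polr1a, Polr1b, Polr1e and Rrn3 fall, with no overlap between control and either hypoxic group.

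Per unit of exon length the balance of the subunits shifted accordingly. In TPM, which divides the counts of each gene by its length before scaling, Polr1a averaged 19.5 ± 1.78 in control and 8.65 ± 0.822 in hypoxia, while Polr1c averaged 35.2 ± 1.83 and 73.4 ± 1.67 (SD, n = 3 libraries). Polr1c was 17th of the 39 by TPM in control and 4th in hypoxia, and Rrn3 went from 8th to 23rd. TPM divides by the length of all annotated exons of a gene, so genes with long annotated isoforms are placed too low.

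The promoters of the polymerase I genes and of the other members were searched for CACGTG, the E-box that MYC and its partner MAX are known to bind. The motif is its own reverse complement, so 1 search covers both strands. RefSeq windows (GRCm38.p6) of 250 bases before and 50 bases after the start were found for 34 of the 39 genes. Tcof1, Npm1, Fbl, Rrp12 and Bop1 had none. Of the 34 windows, 7 (20.6%) held the E-box, beside 10.1% of 10952 windows of tested protein-coding genes and 7.24% of all 27025 windows. Counting only the bases before the start, 2 of the 34 held it (5.88%, beside 8.37% and 6.05%). Those were Rrn3, with E-boxes that begin 215 and 48 bases before the start, and Nop2, with 1 that begins 60 bases before it. The other 5 were Mybbp1a, Utp20, Wdr43, Ltv1 and Pes1. None of the 11 windows of genes called higher held the motif, against 1 of 4 of those called lower and 6 of 19 of those not called. A match is a description of the letters, not a binding site. The windows of Rrn3 and Nop2 are printed from 250 bases before the start up to the RefSeq start, chosen after the values were seen, since they are the ones with the motif upstream and one gene was called lower while the other was not called. Both lie on the plus strand of GRCm38.p6, Rrn3 at chr16:13780449-13780698 and Nop2 at chr6:125131633-125131882, and capitals mark the E-box.
Rrn3: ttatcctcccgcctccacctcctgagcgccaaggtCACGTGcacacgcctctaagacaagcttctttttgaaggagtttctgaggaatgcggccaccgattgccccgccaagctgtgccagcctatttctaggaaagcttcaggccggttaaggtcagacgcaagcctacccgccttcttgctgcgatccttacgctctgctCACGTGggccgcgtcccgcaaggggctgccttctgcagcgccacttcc
Nop2: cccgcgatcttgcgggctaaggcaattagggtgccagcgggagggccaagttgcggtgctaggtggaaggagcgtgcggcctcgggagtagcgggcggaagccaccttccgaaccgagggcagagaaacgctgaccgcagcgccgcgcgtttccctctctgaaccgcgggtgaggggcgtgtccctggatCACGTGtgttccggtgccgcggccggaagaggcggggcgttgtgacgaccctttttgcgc

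Among the nucleolar phosphoproteins, Npm1 rose alone past the call threshold. Npm1 encodes nucleophosmin, a chaperone of ribosomal proteins and histones (chr11:33152287-33163206, minus strand), and stood at 360, 329 and 335 CPM in control, 870, 940.5 and 869 in hypoxia and 719.5, 717 and 730 in hypoxia + rSRGN. The 3 groups did not overlap. The log2 fold change in hypoxia was 1.39 ± 0.07 (adjusted p = 8.54e-14, edgeR), the smallest adjusted p of the 39. Npm1 was also the most abundant member per length in every group, at 383 ± 22.7, 917 ± 11.5 and 799 ± 14 TPM. Mouse Npm1 has processed copies elsewhere in the genome, and how fragments matching several places were counted is not given in the sources used here. Ncl (nucleolin), the next in level, stayed between 487 and 502 CPM in control and between 521 and 590 in hypoxia (0.14 ± 0.07, adjusted p = 0.0891, edgeR). Nolc1, a chaperone of snoRNPs, passed the test but not the fold limit (0.30 ± 0.08, adjusted p = 0.00136, edgeR).

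The box C/D snoRNP group held Fbl, Nop56 and Nop58, of the particles that methylate ribosomal RNA, and Rrp9, of the small subunit processome. It was the most uniform of the groups: 3 of its 4 genes were called higher and the 4th passed the test below the fold limit. Nop58 stood at 70.0, 61.7 and 67.6 CPM in control and 121, 127 and 113 in hypoxia (0.86 ± 0.07, adjusted p = 8.14e-10, edgeR). Nop56, its paralogue in the scaffold of the particle, stood at 67.5, 63.8 and 56.7 CPM in control and 87.2, 95.7 and 89.5 in hypoxia (0.53 ± 0.08). For both, every hypoxia library was above every control. The methyltransferase itself, Fbl (fibrillarin), stood at 44.35, 47.4 and 47.2 CPM in control and 78.5, 89.9 and 71.0 in hypoxia (0.79 ± 0.09, adjusted p = 3.26e-08, edgeR). Rrp9, which binds the snoRNA of the small subunit processome, stood at 16.9, 18.9 and 17.6 CPM in control and at 30.8, 30.8 and 31.7 in hypoxia (0.80 ± 0.09), with no overlap.

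The box H/ACA snoRNP, which converts uridines to pseudouridine and whose core proteins also belong to telomerase, was divided between its enzyme and its partners. The partners Gar1, Nhp2 and Nop10 were called higher. Gar1 stood at 14.9, 17.3 and 16.04 CPM in control and 36.5, 33.9 and 37.8 in hypoxia (1.16 ± 0.10, adjusted p = 4.14e-10, edgeR). Nhp2 stood at 20.4, 15.9 and 17.4 CPM in control and 24.9, 33.2 and 27.6 in hypoxia (0.67 ± 0.12). In both genes the hypoxia libraries lay wholly above control, and so they did in Nop10, which changed by 0.64 ± 0.08. With the trend on gene length taken out, as described further on, Gar1 alone of the 3 was still called, and Nop10 was at 0.20 and Nhp2 at 0.47. Dkc1, the pseudouridine synthase dyskerin, stood at 39.9, 39.3 and 36.8 CPM in control, 25.6, 32.1 and 27.5 in hypoxia and 22.1, 26.8 and 24.6 in hypoxia + rSRGN. It was the only 1 of the 8 snoRNP members with a negative estimate. Its change in hypoxia was below the fold limit (-0.45 ± 0.10, adjusted p = 0.000542, edgeR), and it was called lower in hypoxia + rSRGN against control (-0.66 ± 0.10). In TPM, Gar1 and Dkc1 were level in control at 28.0 ± 2.07 and 28.0 ± 1.60, and stood at 57.8 ± 6.20 and 18.8 ± 1.17 in hypoxia (SD, n = 3 libraries). Without hypoxia replicate 2, the highest library for Nhp2, the Nhp2 change was 0.55 and no longer called, as was also so without control replicate 2 (0.57).

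**Figure D3:**
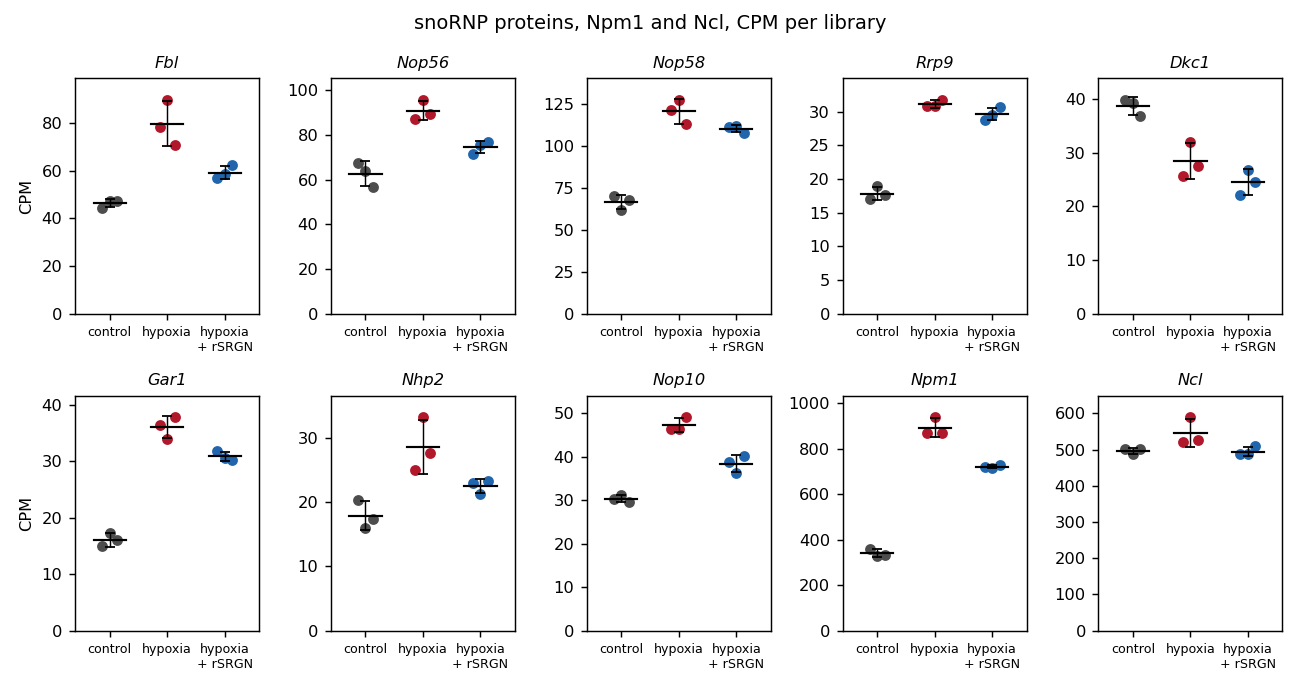
CPM per library of the 8 snoRNP members and of Npm1 and Ncl in control (grey), hypoxia (red) and hypoxia + rSRGN (blue). Points are libraries, lines are means and bars are SD (n = 3 libraries), and every axis starts at 0. Dkc1 lies lower in both hypoxic groups than in control, while the other 7 snoRNP members and Npm1 lie higher in hypoxia than in control.

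The small subunit factors moved least. None of the 9 was called, and their log2 fold changes ran from -0.34 to 0.47 with a median of 0.15. Wdr75, one of the early processome proteins that link transcription of the precursor to its processing, had the largest estimate at 0.47 ± 0.08 (adjusted p = 2.76e-05, edgeR), with 35.4 to 37.3 CPM in control and 48.4 to 52.2 in hypoxia. Its companions of the same module, Heatr1 and Wdr43, had changes of -0.02 ± 0.095 and 0.15 ± 0.08 and did not pass the test. Nop14, a processome component, and Nat10, the acetyltransferase of ribosomal RNA, passed it at 0.33 and 0.25. Bysl, needed late in the maturation of the small subunit, and Utp20, one of the largest processome proteins, passed in the other direction at -0.34 and -0.23. Bysl stood at 41.4, 44.5 and 40.3 CPM in control, 32.8, 35.5 and 31.2 in hypoxia and 27.0, 28.5 and 27.6 in hypoxia + rSRGN, with no overlap between groups. It shares 9.37% of its exon bases with Ccnd3. Rrp12 and Ltv1, both factors of late maturation and export, were at -0.18 and 0.19 with adjusted p values of 0.15 and 0.066 in edgeR's test. For 8 of the 9, Wdr75 being the exception, the 95% interval lay within 1.5-fold on both sides.

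Of the large subunit factors, 4 of 9 were called higher and none lower. Ebna1bp2 stood at 37.5, 40.2 and 36.1 CPM in control and 64.25, 86.15 and 60.1 in hypoxia, with library 2 far above the other two hypoxia libraries (0.89 ± 0.11, adjusted p = 1.67e-07, edgeR). Gnl3, the GTPase nucleostemin, stood at 46.3, 41.2 and 43.7 CPM in control and 73.3, 90.6 and 72.5 in hypoxia (0.85 ± 0.09, adjusted p = 1.71e-08, edgeR). In both cases the hypoxia libraries lay wholly above control. Noc2l changed by 0.75 ± 0.08 and the RNA helicase Ddx18 by 0.67 ± 0.08, of which the Ddx18 call was lost with the length trend taken out (0.58). Noc2l shares 14.4% of its exon bases with Samd11, the largest such share among the members. Pes1, Bop1 and Wdr12 form 1 complex that is needed to process the precursor of the large subunit, and none of them was called: their changes were 0.25, 0.34 and 0.19. Nop2, an rRNA methyltransferase, was at 0.23 and Rrp1b at -0.08.

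A wider set of genes of the same steps was counted next. Of 116 further genes tested, 27 were called higher in hypoxia (23.3%, beside 26.4% of all genes) and 5 lower (4.31%, beside 25.1%), with a median of 0.27. The higher share was thus slightly below that of all genes, and it was the lower share that was small. The roles did not repeat the counts of the members. Among 14 other polymerase I genes, 4 were higher and none lower. Polr1d, like Polr1c a subunit shared with RNA polymerase III, rose by 0.98 ± 0.08, and Polr2h, shared by all 3 polymerases, by 0.89 ± 0.105. The subunits did not divide into shared and particular ones. Polr2e, Polr2f, Polr2k and Polr2l, also shared by all 3, were not called (0.19 to 0.30). Of subunits particular to polymerase I, Znrd1 was called higher (0.65), and Twistnb (-0.13) and Cd3eap (-0.10) were not called. Of 41 other small subunit genes 8 were higher, led by Utp11 (1.09) and Dimt1 (1.07), and 2 were lower, Nol11 (-1.23) and Nol6 (-0.60). Of 51 other large subunit genes 11 were higher, led by Rrp15 (1.17) and Lyar (1.00), and 3 were lower, led by Gnl3l (-0.85) and Urb2 (-0.76). Of 10 other snoRNP genes 4 were higher, led by Nufip1 (0.86) and Snu13 (0.73). Of 22 RNA polymerase III genes 2 were higher (Polr3d, 0.79, and Brf1, 0.70), or 9.09%, and 9 were lower, or 40.9%, led by the initiation factor subunits Gtf3c1 (-1.46) and Gtf3c4 (-1.38). Whether these shares differ from those of all genes was not tested. Of the RNA exosome, which trims the ends of ribosomal RNA, 4 of 13 genes were higher (Exosc1, 1.21, and Exosc8, 0.90, among them) and 1 lower (Exosc4, -0.78). Among 8 subunits of the mRNA polymerase, 2 were higher and 2 lower.

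Myc, a known activator of ribosome production, stood at 22.1, 22.7 and 22.1 CPM in control, 92.3, 144 and 103 in hypoxia and 121, 119 and 147 in hypoxia + rSRGN. Its log2 fold change in hypoxia was 2.34 ± 0.13 (adjusted p = 2.0e-13, edgeR), larger than that of any of the 39 members. Of 11 tested genes of the MYC network 4 were higher (36.4%, beside 26.4% of all genes) and 3 lower (27.3%, beside 25.1%). Of 16 p53 targets, a set known to respond when ribosome assembly is disturbed, 6 were higher (Bax, 1.66, and Pmaip1, 1.52, among them) and Sesn1 was lower (-1.78). That is 43.8% called, beside 51.6% of all genes, with 37.5% higher and 6.25% lower.

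Features that the choice of the genes did not use were then set beside the changes, after those had been seen. Genomic span, the distance from a gene's first to its last annotated base, separated the calls. The 39 genes had a median span of 15 kb. Of the 20 at or below it 12 were called higher and 0 lower, with a median log2 fold change of 0.67. Of the 19 above it 1 was called higher (Nop58, 34.1 kb) and 4 lower, with a median of -0.08. Across the 39 genes, Pearson's r of the log2 fold change with log2 span was -0.567 and Spearman's rho was -0.621, beside -0.17 and -0.182 across 13897 tested protein-coding genes. Coding length gave -0.533 and -0.583 across the members. These are descriptions across genes of the same 6 libraries, and genes are not independent replicates. When the trend of each library on exon length and span was taken out, an alternative chosen after the data were seen, 14 members were called, 10 higher and 4 lower. Nhp2 (0.47), Nop10 (0.20) and Ddx18 (0.58) were then no longer called.

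Introns were the other feature. In mouse as in other vertebrates many snoRNAs are cut from introns of genes for ribosome production, and 7 of the 39 members (17.9%) carried annotated snoRNA genes on their own strand within their bodies, beside 1.76% of the tested protein-coding genes. Taf1d held 8, Nop56 held 5, Nop58 held 4, Gnl3, Ncl and Wdr43 held 3 each and Dkc1 held 1. Among these 7 hosts 3 were called higher (Taf1d, Nop58 and Gnl3) and 0 lower, with a median of 0.53, beside 10 higher and 4 lower of the other 32 members (31.2% higher, median 0.24). Of the 244 hosts among all tested protein-coding genes 74 were higher (30.3%) and 49 lower, with a median of 0.09, and the count of 3 among 7 was not tested against these shares.

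**Figure D4:**
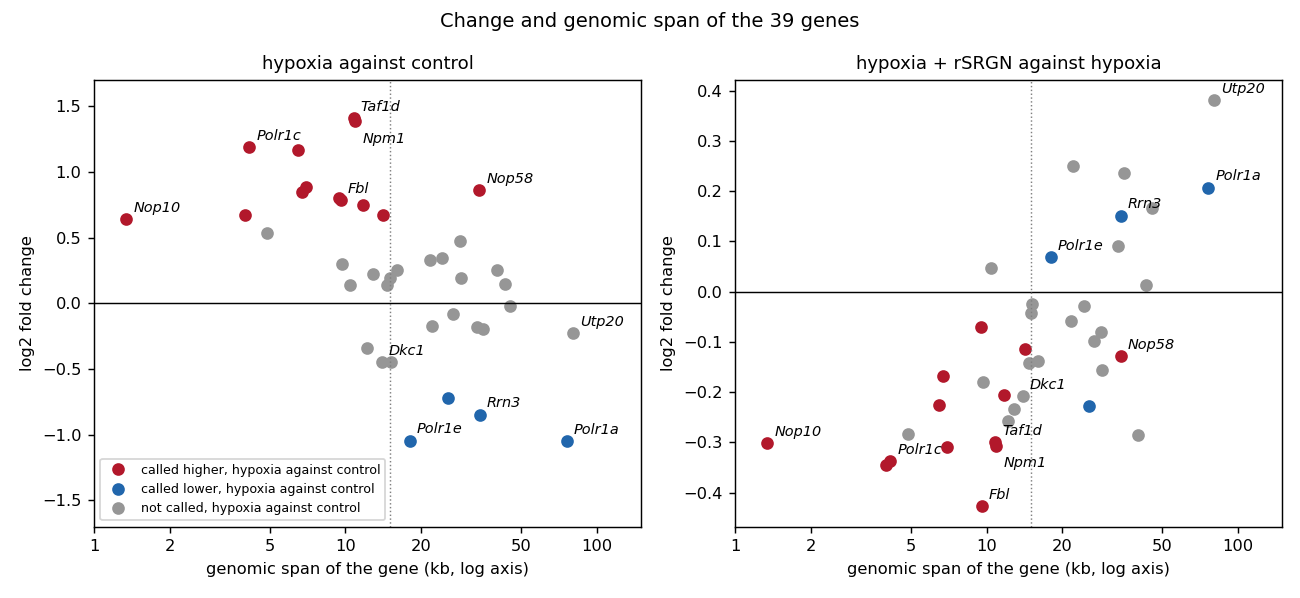
Log2 fold change (y axis) against genomic span in kb on a log axis (x axis) for the 39 genes, in hypoxia against control (left) and in hypoxia + rSRGN against hypoxia (right). Colours give the call in hypoxia against control in both panels, and the dotted line marks the median span of 15 kb. On the left the 4 genes called lower all lie to the right of the line and 12 of the 13 called higher lie to its left.

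The comparison of hypoxia + rSRGN with hypoxia asks what the added protein changed in hypoxic cells. None of the 39 genes was called by edgeR's quasi-likelihood test, beside 3.13% of all genes tested (2.27% higher and 0.859% lower), and none by DESeq2. At an unadjusted p below 0.05 and any fold, 19 members passed (29.4% of all genes did). At an adjusted p below 0.05 and any fold 10 passed, 9 lower and 1 higher: that is 25.6% of the members beside 16.6% of all genes, and 23.1% lower beside 6.11%. The estimates ran from -0.43 to 0.38 with a median of -0.14, beside -0.03 for all genes, and 29 of the 39 were below 0. In 22 members the libraries of these groups did not overlap, 4 higher (10.3%, beside 16.5% of all genes) and 18 lower (46.2%, beside 15.5%), or 56.4% in all beside 32%. For 37 members the 95% interval lay within 1.5-fold on both sides, the exceptions being Fbl and Nhp2.

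The 9 that passed on the lower side came from all 6 roles. Fbl had the largest difference, at 56.8, 58.7 and 62.4 CPM with rSRGN beside 78.5, 89.9 and 71.0 without (-0.43, 95% interval -0.60 to -0.25, adjusted p = 0.00168, edgeR). Npm1 was at -0.31 (-0.45 to -0.16, adjusted p = 0.00434, edgeR) and Polr1c at -0.34 (-0.52 to -0.16, adjusted p = 0.00969, edgeR). In all 3 genes every library with rSRGN lay below every hypoxia library and above every control library. Nop56, Nop10, Nat10, Taf1d, Nhp2 and Ebna1bp2 passed with changes between -0.34 and -0.28 and adjusted p values of 0.0161 to 0.048 in edgeR's test. Utp20 was the 1 that passed on the higher side: it stood at 55.65, 44.8 and 49.75 CPM in hypoxia and 65.0, 68.6 and 62.1 in hypoxia + rSRGN (0.38, 0.20 to 0.56, adjusted p = 0.00505, edgeR), with no overlap. The 4 members called lower in hypoxia did not pass: Polr1a was at 0.21, Rrn3 at 0.15, Polr1e at 0.07 and Polr1b at -0.23. Beside these differences, cardiomyocyte markers were called higher with rSRGN for 13 of 15 and the summed proliferation markers were lower, and their part was not tested.

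**Figure D5:**
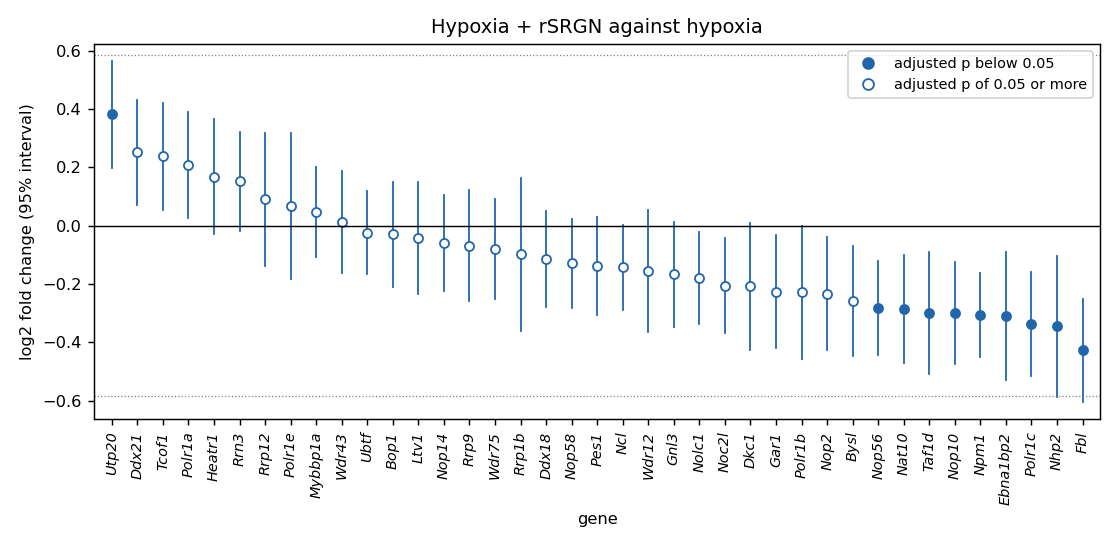
Log2 fold change of each of the 39 genes in hypoxia + rSRGN against hypoxia (y axis), in order of the estimate, with 95% intervals. Filled points have an adjusted p below 0.05, and dotted lines mark a 1.5-fold change, which no estimate reaches. Utp20 is the 1 filled point above 0, and 9 filled points lie below it.

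Span was related to this comparison too, with the opposite sign: r was 0.699 and rho 0.706 across the 39 genes, beside 0.288 and 0.373 across all tested protein-coding genes. The shortest genes, such as Nop10 and Nhp2, had negative estimates and the longest, Utp20 and Polr1a, positive ones. The same hypoxia libraries enter both comparisons, so the signs are not independent of each other. Among the wider set of 116 genes, 1 was called in this comparison: Pelp1, a factor of large subunit maturation, fell by 0.59 on the log2 scale. Myc did not pass (0.19 ± 0.115, adjusted p = 0.279, edgeR).

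Against control, hypoxia + rSRGN left 13 members called, 7 higher and 6 lower, or 33.3% beside 48.8% of all genes (17.9% higher beside 24.1%, and 15.4% lower beside 24.7%). With library size alone as the scaling, 15 were called, 10 higher and 5 lower. Called higher were Taf1d (1.11), Npm1 (1.08), Gar1 (0.94), Polr1c (0.85), Nop58 (0.73), Rrp9 (0.73) and Gnl3 (0.68). Called lower were Polr1e (-0.98), Polr1b (-0.95), Polr1a (-0.84), Rrn3 (-0.70), Dkc1 (-0.66) and Bysl (-0.60). Bysl lay close to the fold limit and lost its call with library size alone, with the length trend taken out (-0.56), with only the groups compared (-0.58), without control replicate 2 (-0.57) and without hypoxia + rSRGN replicate 1 (-0.58). Under the fold limit, which is 0.585 on the log2 scale, lay Ebna1bp2 (0.58), Ddx18 (0.56), Noc2l (0.54), Fbl (0.36), Nop10 (0.34) and Nhp2 (0.33), beside 0.89, 0.67, 0.75, 0.79, 0.64 and 0.67 in hypoxia against control. Since these comparisons share the control libraries, a gene called in both is not called on independent evidence. A call in one but not the other is no test of a difference: that test is the comparison of the hypoxic groups above. None of the members reached the 1.5-fold limit there. Without that limit Fbl, Nop10, Nhp2 and Ebna1bp2 passed it on the lower side, and Ddx18 and Noc2l did not pass.

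The summed level of the 39 genes was 2588 to 2616 CPM in control, 3394 to 3698 in hypoxia and 3116 to 3200 in hypoxia + rSRGN, with no overlap between the 3 groups. Npm1 alone accounted for most of the rise in hypoxia. Without it the other members summed to 2254 to 2282 CPM in control, 2525 to 2758 in hypoxia and 2397 to 2470 in hypoxia + rSRGN, still with no overlap. The nucleolar phosphoproteins, Npm1 included, summed to 876 to 921, 1458 to 1603 and 1266 to 1302 CPM. The 10 polymerase I genes summed to 685 to 706 CPM in control and 625 to 666 in hypoxia, and the 9 small subunit factors to 345 to 363 and 358 to 382. By contrast, the box C/D proteins summed to 189 to 199 CPM in control, 305 to 344 in hypoxia and 268 to 278 in hypoxia + rSRGN, and the large subunit factors to 360 to 370, 495 to 562 and 457 to 472.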

How the data were processed

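The 9 RNA-seq libraries of NMVMs, 3 per group, were grouped by the treatment in the sample labels. What the authors deposited are raw counts, not normalized, of whole fragments for each gene. Per the file header, fragments were counted on exons with featureCounts 2.0.1 and GENCODE M25 without a strand option. The submitters' processing notes name HISAT2 and mm10. How the counting treated fragments matching several places is not given in the sources used here.

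In edgeR 4.0.16 (R 4.3.3), genes were kept by filterByExpr, libraries were scaled with TMM, and 1 model with a mean for each group was fitted to all 9 libraries. The SE is the absolute log2 fold change over the root of F, and the 95% interval uses the total degrees of freedom of the test. The step was tested on simulated data in which few genes changed, unlike here. That test does not show how the scaling behaves under so broad a change. TPM was computed from the counts and the exon length in the table. Alternatives were DESeq2 1.42.0, RLE or no scaling, TMM without mitochondrial and heat shock genes, other filters and thresholds, a fit to the compared groups alone, a replicate block, each library left out, and, chosen after the data were seen, the trend on exon length and span taken out by an offset.

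All 39 members are named. By the rule used, libraries are written out for the called members with the largest changes of each role (up to 2 higher and 2 lower) and for members that went against their role, with a few others added. From each wider list at most the 2 largest rises and falls are named, with further polymerase I subunits added. The members, roles, wider lists and markers were chosen with earlier results of these data known. Coding length was taken from GENCODE M21, on the same build.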

Additional observations from a re-analysis of the deposited data

How the results depend on the processing

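The counts of members called rested on the fold change limit more than on other choices. Without the limit, 29 members were called in hypoxia against control, 10 in hypoxia + rSRGN against hypoxia and 25 in hypoxia + rSRGN against control. These are 74.4%, 25.6% and 64.1% of the members, beside 70.9%, 16.6% and 68.6% of all genes. With a fold change of at least 2 there were 6, 0 and 2 of the 39, beside 5739, 108 and 5304 of the 16762 genes tested. Over RLE scaling, library size alone, scaling without mitochondrial and heat shock genes, DESeq2, both other filters, the unadjusted p and only the groups compared, the 3 counts were 17 to 18, 0 and 13 to 15. With each library left out in turn they were 16 to 17, 0 and 12 to 14. The direction of every called member was kept under each alternative. Nop56 was also called in hypoxia with library size alone (0.60). In hypoxia + rSRGN against control Bysl lost its call with library size alone, with the trend on length taken out (-0.56), with only the groups compared (-0.58) and without control replicate 2 (-0.57) or hypoxia + rSRGN replicate 1 (-0.58). Ebna1bp2 gained one with library size alone (0.62), with only the groups compared (0.59), without control replicate 2 (0.61) or without hypoxia + rSRGN replicate 2 (0.62). With library size alone other members gained higher calls too. Among values called under neither setting, 40 changed sign. The cause was not tested.

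Over all genes, hypoxia + rSRGN against hypoxia gave 525 calls, and 899 at the unadjusted p, 2790 without the fold limit, 108 at 2-fold, 347 with the trend on length taken out and 321 to 699 with a library left out, the lowest without hypoxia replicate 3. At 2-fold, hypoxia gave 5739 calls against control and hypoxia + rSRGN 5304.

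With the replicate number as a block (replicate block) 17, 0 and 13 members were called, as without it. Deviations of same-numbered libraries correlated between -0.0374 and 0.0215 over 9 pairs, and those of differently numbered libraries between -0.0477 and 0.046. The numbers thus showed no pairing, but correlations over groups of 3 cannot tell whether libraries shared a culture or a preparation. Groups of 3 and low levels limit what can be seen: Polr1b, Polr1e and Rrp1b rest on the fewest fragments, by their total and by their lowest library.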
